A study of Mus musculus with 2 samples.

Results

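The genes described are 10 that make, load or feed class I molecules of the major histocompatibility complex (MHC), chosen by name from the deposited table: the heavy chains H2-K1, H2-D1 and H2-T23, the light chain B2m, the peptide transporter subunits Tap1 and Tap2, the adaptor Tapbp, and the immunoproteasome subunits Psmb8, Psmb9 and Psmb10. All 10 had a row, out of 26601 named genes, and all 10 passed a filter on low values (a mean over the libraries of at least 1 TPM), which 9488 named genes did. TPM is a transcript abundance scaled for length and to the same total in each library. The FuOXP NP library came from tumours of BALB/c mice given nanoparticles that carried FuOXP, in which 5-fluorouracil and oxaliplatin are joined in 1 molecule, at 10 mg/kg. The Empty NP library came from tumours of mice given the same kind of particle without drug. In both groups CT26 cells, a colon carcinoma line from BALB/c, were grown under the skin to about 200 mm3, the particles were injected into a vein 3 times at intervals of 5 days, and tumours were removed 24 hours after the final one. The genotype is given as WT in both groups, and the sources used here give neither age nor sex of the mice. The labels speak of 3 mice per group, but each group has 1 library, and whether the tumours were pooled is not stated. No value below therefore has a replicate check, no test between the treatments exists, and higher and lower describe these 2 libraries only.

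Class I molecules show peptides from inside the cell to CD8+ T cells. Cytosolic proteins are cut by the proteasome, in which the inducible subunits can take the place of constitutive ones, the transporter carries the peptides into the endoplasmic reticulum, the adaptor holds the transporter next to an empty class I molecule, and a heavy chain with its light chain and a bound peptide travels to the cell surface. Interferon gamma raises nearly all of these genes together, and tumours that lose some of them are known to escape T cells. BALB/c mice carry the d haplotype of the mouse MHC, whereas the GRCm38 build is from C57BL/6 mice, which carry the b haplotype, and heavy chains are among the most variable genes between haplotypes. How many heavy chain reads were lost through these differences was not tested, and the d haplotype gene H2-L is not analysed here.

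The promoters of the heavy chains, of B2m and of the Psmb9 and Tap1 pair are shown because class I genes are known to share interferon and NF-kB control elements near their start. Sequences are from RefSeq on GRCm38.p6, which had a window for 9 of the 10 genes, with Tap2 as the other one. The RefSeq starts used for them can differ from the GENCODE vM21 gene positions given further below. The windows are the 250 bases before the transcript start of H2-K1 (chr17:34000348-34000597, minus strand), H2-D1 (chr17:35262844-35263093, plus strand), H2-T23 (chr17:36032702-36032951, minus strand) and B2m (chr2:122147437-122147686, plus strand), and the 225 bases between the divergent starts of Psmb9 and Tap1 (chr17:34187331-34187555, plus strand). Capitals mark the motif letters GGGATTCCC (an NF-kB site, known as part of enhancer A), GAAANNGAA and GAANNGAAA (forms of the interferon response element), TGACG (the core of the X2 box) and CCAAT, each searched on both strands, and no marked matches overlap.
H2-K1: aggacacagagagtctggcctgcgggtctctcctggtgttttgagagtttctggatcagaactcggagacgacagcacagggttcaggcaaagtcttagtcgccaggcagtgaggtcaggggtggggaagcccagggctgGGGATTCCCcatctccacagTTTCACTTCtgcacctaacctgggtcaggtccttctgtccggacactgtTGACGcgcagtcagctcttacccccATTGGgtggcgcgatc
H2-D1: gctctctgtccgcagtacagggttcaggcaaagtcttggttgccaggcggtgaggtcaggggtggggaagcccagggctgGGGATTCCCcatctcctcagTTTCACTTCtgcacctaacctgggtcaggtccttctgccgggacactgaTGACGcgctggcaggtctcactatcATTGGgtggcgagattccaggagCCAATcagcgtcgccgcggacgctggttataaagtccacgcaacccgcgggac
H2-T23: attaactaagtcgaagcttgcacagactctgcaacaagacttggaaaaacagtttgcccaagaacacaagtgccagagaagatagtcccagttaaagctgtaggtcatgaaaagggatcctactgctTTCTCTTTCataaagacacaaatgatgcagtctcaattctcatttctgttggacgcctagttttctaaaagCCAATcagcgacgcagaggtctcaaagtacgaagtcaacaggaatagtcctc
B2m: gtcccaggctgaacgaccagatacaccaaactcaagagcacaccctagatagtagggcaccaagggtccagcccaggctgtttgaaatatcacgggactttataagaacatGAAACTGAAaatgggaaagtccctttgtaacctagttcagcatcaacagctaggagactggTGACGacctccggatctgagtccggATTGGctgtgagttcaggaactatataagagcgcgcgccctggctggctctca
Psmb9 to Tap1: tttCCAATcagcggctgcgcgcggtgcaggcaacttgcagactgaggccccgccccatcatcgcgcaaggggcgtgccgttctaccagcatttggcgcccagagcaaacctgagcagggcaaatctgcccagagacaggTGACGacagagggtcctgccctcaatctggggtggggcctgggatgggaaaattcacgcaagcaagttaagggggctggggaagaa
The H2-K1 and H2-D1 windows both held GGGATTCCC, followed by TTTCACTTC (GAANNGAAA on the other strand), TGACG and CCAAT on the other strand, in the same order. Aligned to each other they were identical at 87.4% of 190 bases. B2m held GAAACTGAA and H2-T23 held TTCTCTTTC, both matches to GAAANNGAA, while neither held GGGATTCCC. The stretch between Psmb9 and Tap1 held TGACG and CCAAT. Among all 32851 promoter windows of this length, 0.301% held GGGATTCCC, 7.13% held GAAANNGAA, 6.31% held GAANNGAAA, 17.8% held TGACG and 33.8% held CCAAT. The GAS letters TTCNNNGAA, found in 7.02% of windows, occurred among the members in that of Psmb8 alone. A match says only that the letters are there.

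The scale of the libraries bears on every value. In FuOXP NP the top 20 rows took 81.8% of all TPM, against 47.3% in Empty NP, and the median named gene was lower in FuOXP NP by 1.44 on the log2(TPM + 1) scale, so values are also given relative to that gene. Low TPM values lay on steps of whole reads, which allowed the reads behind each member to be recovered, and they were few: 156 reads for the 10 members together in FuOXP NP and 389 in Empty NP, although the labels put the depth of a sample at 73 M to 77 M. Intervals in parentheses are exact 95% Clopper-Pearson limits for the FuOXP NP part of a gene's reads, turned into TPM ratios, cover counting error only, and are read against the 1430 genes with at least 50 reads, which had a median of 3.20-fold lower in FuOXP NP.

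All 10 members were lower in FuOXP NP as deposited, and all 10 lay below the median named gene, as 50% of the named genes do by construction. Their median log2 difference was -2.10 as deposited and -0.66 relative to the median named gene. Single members ran from -2.04 for H2-T23 to -0.07 for Psmb10 on the relative scale. At least 2-fold below the median gene were 2 members, H2-T23 and Psmb9, where 12.2% of the named genes were, or 18.3% of the 4542 named genes whose mean TPM lay within the range of the members. Psmb9 was no longer 2-fold below with a pseudocount of 0.1 TPM, at -0.85, or when the filter was raised to 5 TPM, at -0.88. The median of the 4542 genes was -0.19, and 59.0% of them lay below the median gene. The 2-fold count of the members was therefore near the background, and what the members shared in this setting was the side of the median gene on which they lay. Psmb10 lay on the other side, at 0.13, with a pseudocount of 0.1 TPM and with the filter at 5 TPM. As deposited, all 10 were at least 2-fold lower, as were 69.8% of the named genes. Pooled over the members, the reads gave a TPM ratio 4.66-fold lower in FuOXP NP (3.86 to 5.64), and the summed TPM one 4.10-fold lower. That interval lies wholly beyond the 3.20-fold of the typical gene, but it treats the 10 members as 1 pool. It leaves out the spread between genes, with single members from 3.27-fold to 14.2-fold lower. How often pools of other genes lie as far was not tested.

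**Figure D1:**
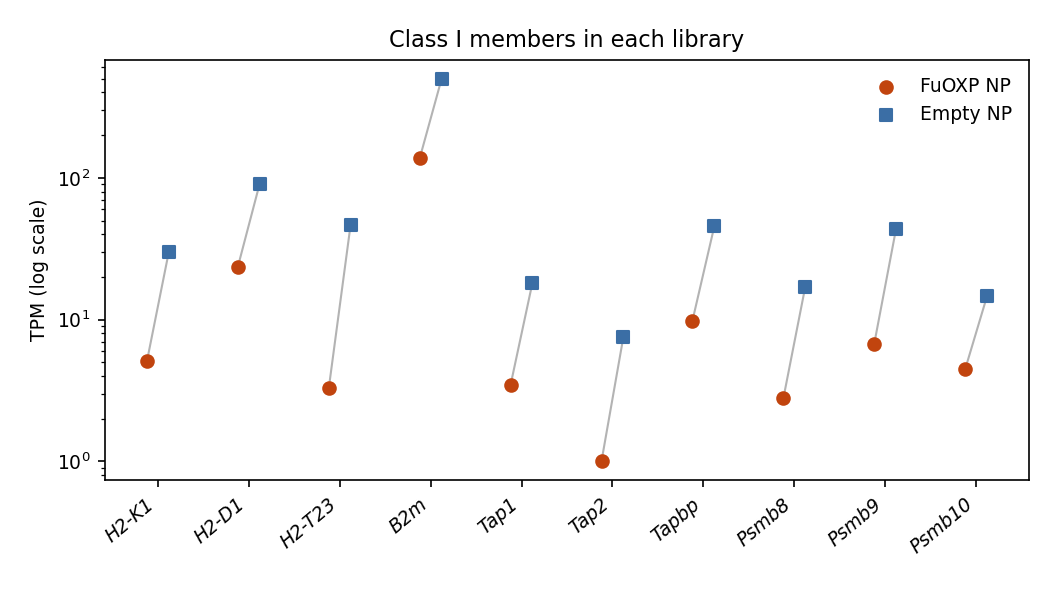
TPM of each of the 10 members in the FuOXP NP library (circles) and the Empty NP library (squares) on a log axis, 1 library per group. Every member was lower in FuOXP NP, from 137.5 against 497 TPM for B2m to 1.01 against 7.54 TPM for Tap2.

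The classical heavy chains H2-K1 and H2-D1 present peptides to CD8+ T cells. H2-D1 (chromosome 17, plus strand, 35262730 to 35267499, protein coding) was at 23.7 TPM on 32 reads in FuOXP NP and at 91.1 TPM on 66 reads in Empty NP. That is 3.85-fold lower (2.49 to 6.07), and its log2 difference was -0.46 relative to the median gene. H2-K1 (chromosome 17, minus strand, 33996017 to 34000347, protein coding) was at 5.12 TPM on 7 reads in FuOXP NP and at 30.04 TPM on 22 reads in Empty NP. It was 5.87-fold lower (2.42 to 16.3), or -0.90 relative to the median gene. Both intervals held the 3.20-fold of the typical gene, so neither classical heavy chain was set apart from it at this depth.

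H2-T23 (chromosome 17, minus strand, 36029773 to 36032855, protein coding) encodes the heavy chain of Qa-1, a nonclassical molecule that shows leader peptides of other class I chains to receptors on natural killer cells and T cells. It was at 3.30 TPM on 5 reads in FuOXP NP and at 46.8 TPM on 38 reads in Empty NP. That is 14.2-fold lower (5.58 to 46.2), an interval wholly beyond the typical gene, and H2-T23 ranked 190 from the lowest of the 9488 named genes. Its share among the heavy chains differed between the libraries: H2-D1 stood at 7.17 times the TPM of H2-T23 in FuOXP NP and at 1.95 times in Empty NP. Over the 45 pairs of members, unadjusted exact 95% intervals of the ratio of their reads excluded equal change for 2, and both involved H2-T23, with H2-D1 (3.66, 1.26 to 13.04) and with B2m (0.256, 0.0748 to 0.697). The other pairs of H2-T23 held equal change, and among 45 unadjusted intervals as few as 2 exclusions can come from counting error alone. The exons of the 3 heavy chains overlap no other annotated gene, but 3.10% of the 75-base stretches of H2-K1 transcripts, 5.56% of those of H2-D1 and 5.91% of those of H2-T23 also occur in transcripts of other genes, other class I genes among them, so some of their reads may be shared.

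B2m encodes beta-2-microglobulin, the light chain that classical heavy chains need for stable folding and export to the cell surface. It lies on the plus strand of chromosome 2 from 122147686 to 122153083, is protein coding, shares no 75-base stretch with another gene and was the most abundant member in both libraries. It was at 137.5 TPM on 62 reads in FuOXP NP and at 497 TPM on 120 reads in Empty NP, 3.61-fold lower (2.64 to 4.99), or -0.41 relative to the median gene. With the most reads of any member it has the narrowest interval, and that interval held the typical gene. The 3 heavy chains together came to 0.233 of the B2m level in TPM in FuOXP NP and to 0.338 in Empty NP. By pooled reads the heavy chains were 1.48-fold lower relative to B2m, with an interval (0.911 to 2.41) that holds equal change.

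Tap1 and Tap2 form the transporter that moves peptides into the endoplasmic reticulum. Tap1 (chromosome 17, plus strand, 34187553 to 34197225, protein coding) was at 3.48 TPM on 10 reads in FuOXP NP and at 18.2 TPM on 28 reads in Empty NP, 5.23-fold lower (2.46 to 12.1). Tap2 (chromosome 17, plus strand, 34203527 to 34216321, protein coding) was at 1.01 TPM on 2 reads in FuOXP NP and at 7.54 TPM on 8 reads in Empty NP, 7.47-fold lower (1.49 to 72.2). Their log2 differences relative to the median gene were -0.66 for Tap1 and -0.65 for Tap2, or -0.53 and -0.96 with a pseudocount of 0.1 TPM and -0.72 and -0.33 with 5 TPM, and both intervals held the typical gene. Tapbp encodes tapasin, the adaptor that bridges the transporter and the class I heavy chain and favours well-bound peptides. Tapbp (chromosome 17, plus strand, 33915899 to 33929292, protein coding) was at 9.84 TPM on 17 reads in FuOXP NP and at 45.4 TPM on 42 reads in Empty NP, 4.61-fold lower (2.57 to 8.64), or -0.66 relative to the median gene. Exons of Tap1 overlap those of Psmb9 by 212 bases, exons of Tap2 overlap the non-coding genes Gm15821 and Gm20496, and exons of Tapbp overlap those of Zbtb22 and the antisense gene Gm19412, so part of their reads may be shared.

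The inducible subunits Psmb8 (LMP7), Psmb9 (LMP2) and Psmb10 (MECL-1) are proteases of the immunoproteasome and cut proteins so that more peptides fit class I grooves. Psmb9 (chromosome 17, minus strand, 34181987 to 34187764, protein coding) was at 6.78 TPM on 13 reads in FuOXP NP and at 43.8 TPM on 45 reads in Empty NP. It was 6.46-fold lower (3.43 to 13.1) and lay -1.09 from the median gene, with an interval wholly beyond the typical gene. Of the 3298 named genes with at least 20 reads, 16.7% had an interval wholly below the typical gene, and of the 7 members with as many reads, 2 did, H2-T23 and Psmb9. Psmb8 (chromosome 17, plus strand, 34197721 to 34201454, protein coding) was at 2.79 TPM on 4 reads in FuOXP NP and at 16.9 TPM on 13 reads in Empty NP, 6.07-fold lower (1.87 to 25.5). Psmb10, which lies outside the MHC (chromosome 8, minus strand, 105935735 to 105938444, protein coding), was at 4.48 TPM on 4 reads in FuOXP NP and at 14.6 TPM on 7 reads in Empty NP. Its 3.27-fold lower value (0.831 to 15.2) put it next to the median gene, at -0.07, and its interval held equal levels. Exons of Psmb8 overlap those of the antisense gene Gm20496 by 498 bases.

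**Figure D2:**
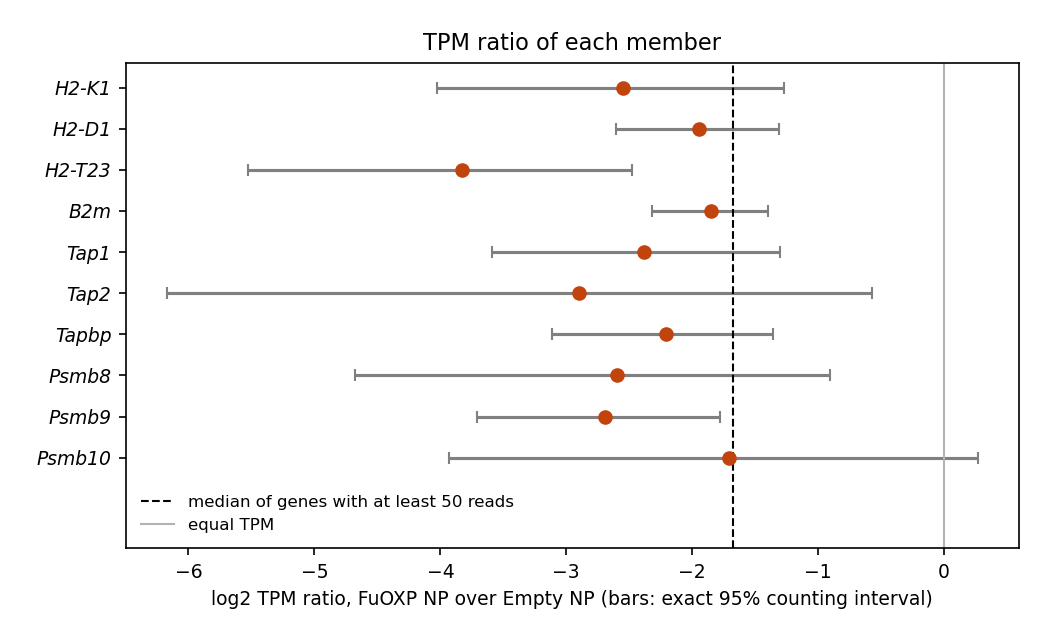
Log2 TPM ratio of each member, FuOXP NP over Empty NP, with the exact 95% counting interval as a bar, the typical gene (1430 genes of at least 50 reads) as a dashed line and equal TPM as a grey line. The bars of H2-T23 and Psmb9 lie wholly left of the dashed line, and that of Psmb10 crosses the line of equal TPM.

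In the order of levels, B2m and H2-D1 led both libraries and Tap2 was last in both. H2-T23 ranked 8 by TPM in FuOXP NP and 3 in Empty NP. Neighbours in this order rest on few reads: Psmb10, Tap1, H2-T23 and Psmb8 lay between 4.48 and 2.79 TPM in FuOXP NP on 4, 10, 5 and 4 reads, so their order there is not resolved.

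The inducible subunits can be set against the subunits of the standard core, called constitutive here. Among these only Psmb5, Psmb6 and Psmb7 are replaced by inducible subunits, and the others belong to both forms of the core. The 14 constitutive subunits of the core were measured in both libraries, with 11 above and 3 below the median gene, 3 at least 2-fold above it (12.6% of the named genes were) and none at least 2-fold below it. Their median was 0.69 relative to the median gene and -0.75 as deposited, and their pooled reads, 185 in FuOXP NP and 169 in Empty NP, gave a ratio 1.71-fold lower (1.38 to 2.11). Relative to all 14 of these subunits the immunoproteasome subunits were 3.38-fold lower by pooled reads (1.94 to 6.08, exact interval, counting error only). Of the pooled constitutive reads, only 10 in FuOXP NP and 14 in Empty NP came from the 3 replaced subunits. The ratio is thus mostly one against subunits common to both forms. Psma2 and Psmb1, structural parts of the core, were at 14.2 and 16.6 TPM in FuOXP NP and at 15.1 and 20.6 TPM in Empty NP, and Psmb4 was at 7.82 TPM in FuOXP NP and at 12.8 TPM in Empty NP. Within the 3 catalytic positions, the inducible subunits made up 63.3% of the summed TPM in FuOXP NP and 77.8% in Empty NP. In reads this was 67.7% (48.6 to 83.3, exact binomial interval) in FuOXP NP and 82.3% (72.1 to 90.0) in Empty NP, and the intervals overlap. The constitutive partners Psmb5, Psmb6 and Psmb7 had 1, 2 and 7 reads in FuOXP NP and 2, 1 and 11 reads in Empty NP, so no single position could be compared at this depth. The activator subunits Psme1 and Psme2, which interferon gamma also raises, were at 13.8 and 10.8 TPM in FuOXP NP and at 37.1 and 22.2 TPM in Empty NP, 0.08 and 0.47 above the median gene. Of the 10 activator and assembly genes, 9 passed the filter, and 7 of these lay above and 2 below the median gene.

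Of the 13 other genes of peptide loading and trimming, 12 passed the filter, 10 above and 2 below the median gene, with a median of 0.30. Calr, Canx and Pdia3, the chaperones calreticulin, calnexin and ERp57 that fold class I chains along with many other proteins, were at 64.3, 26.4 and 32.2 TPM in FuOXP NP and at 138.5, 65.3 and 56.7 TPM in Empty NP, and lay 0.34, 0.17 and 0.64 above the median gene. Erap1, the aminopeptidase that trims peptides in the endoplasmic reticulum, was at 4.75 TPM on 20 reads in FuOXP NP and at 25.7 TPM on 58 reads in Empty NP. It was 5.41-fold lower (3.21 to 9.50), or -0.78 relative to the median gene and thus within the range of the members, and its exons overlap those of Cast by 834 bases. By pooled reads, the FuOXP NP over Empty NP ratio of Tap1, Tap2 and Tapbp was 1.98-fold lower than that of these other genes (1.25 to 3.22).

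Other class I heavy chains differed widely. Of 24 on the list 21 had a row of their own, 8 passed the filter, 3 lay above and 5 below the median gene, and the median was -0.33. H2-T22, a nonclassical chain bound by gamma delta T cells, was at 69.3 TPM on 124 reads in FuOXP NP and at 157.5 TPM on 151 reads in Empty NP, 2.27-fold lower (1.78 to 2.91). The table gives the same pair of values under H2-T9, so these reads may belong to either gene, and exons of H2-T22 also overlap the antisense gene A930015D03Rik. H2-T24 was at 6.99 TPM on 8 reads in FuOXP NP and at 55.5 TPM on 34 reads in Empty NP, 7.93-fold lower (3.60 to 19.8). H2-T23 and H2-T24 were 6.21-fold (2.34 to 20.8) and 3.48-fold (1.51 to 9.02) lower relative to H2-T22. H2-Q4 was at 11.02 TPM in FuOXP NP and at 50.8 TPM in Empty NP, 4.605-fold lower (2.47 to 9.03). By pooled reads, the FuOXP NP over Empty NP ratio of the 3 member heavy chains was 1.95-fold lower than that of the other heavy chains (1.29 to 2.98). The reads of these other chains were mostly those of H2-T22.

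**Figure D3:**
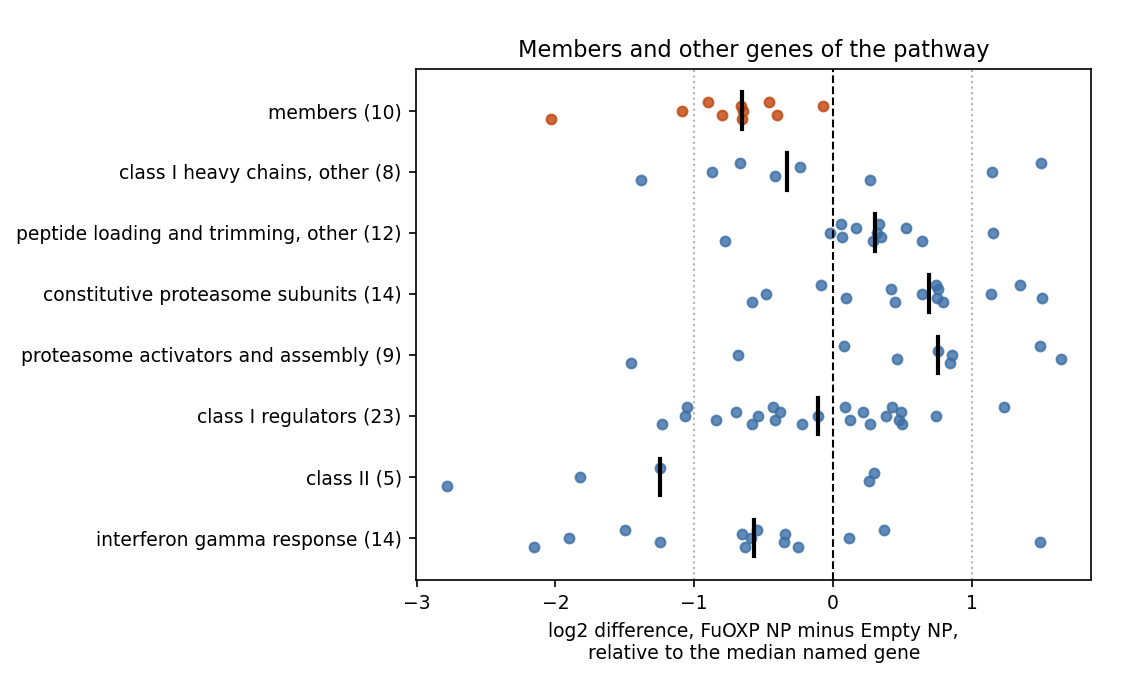
Log2 difference of single genes, FuOXP NP minus Empty NP, relative to the median named gene (dashed line), for the members and 7 lists, with the number of genes past the filter in parentheses, on the log2(TPM + 1) scale. Black bars are medians, -0.66 for the members and 0.69 for the constitutive proteasome subunits, and dotted lines mark 2-fold.

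Regulators of class I genes were spread about the median gene. Of 26, 23 passed the filter, 11 above and 12 below the median gene, with a median of -0.11. At least 2-fold above was 1 (12.6% of the named genes were), and 3 were at least 2-fold below (12.2% were). Nlrc5, the transactivator that binds class I promoters, was listed at 0 in FuOXP NP and at 2.94 TPM on 7 reads in Empty NP. The exact interval of its ratio begins at 2.69-fold lower and so holds the typical gene. Irf1, a transcription factor of the interferon gamma response, was at 3.84 TPM on 8 reads in FuOXP NP and at 14.3 TPM on 16 reads in Empty NP. Its relative difference was -0.22, and its interval (1.51 to 10.08 fold lower) held the typical gene. Nfyb, a subunit of the factor that binds CCAAT boxes, was at 2.64 TPM on 7 reads in FuOXP NP and at 19.7 TPM on 28 reads in Empty NP, 7.47-fold lower (3.19 to 20.3). Atf1, which can bind CRE-like sites such as the X2 box, was at 1.25 TPM on 2 reads in FuOXP NP and at 11.6 TPM on 10 reads in Empty NP, and Ifngr1, a chain of the interferon gamma receptor, at 2.01 TPM on 3 reads in FuOXP NP and 11.3 TPM on 9 reads in Empty NP.

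Of 7 interferon genes, none was above 0 in FuOXP NP, and Ifng alone was above 0 in Empty NP, on 2 reads. Among 17 interferon gamma response genes, 14 passed the filter, 3 above and 11 below the median gene, with a median of -0.57, 1 at least 2-fold above (12.6% of the named genes were) and 4 at least 2-fold below (12.2% were). Gbp3, Gbp4 and Cxcl9 were at 2.34, 1.02 and 1.90 TPM in FuOXP NP and at 39.3, 19.5 and 21.3 TPM in Empty NP. By pooled reads the members differed from this list by a factor of 1.21 (0.905 to 1.63), an interval that holds equal change. Of 11 genes of MHC class II, which present peptides from outside the cell, 5 passed the filter, 2 above and 3 below the median gene. The class II invariant chain Cd74 and H2-Eb1 were at 2.71 and 1.61 TPM on 2 reads each in FuOXP NP and at 68.2 and 24.1 TPM on 27 and 16 reads in Empty NP. H2-Aa and H2-Ab1, on 4 reads each in FuOXP NP and 6 each in Empty NP, lay 0.30 and 0.26 above the median gene. The pooled class II reads, 14 in FuOXP NP and 70 in Empty NP, were 9.33-fold lower (5.21 to 17.9). Most of those in Empty NP came from Cd74, H2-Eb1 and Ciita, the last with 15 reads there and listed at 0 in FuOXP NP.

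Of the 10 members, 8 lie in the MHC on chromosome 17, between the start of Tapbp at 33915899 and the end of H2-T23 at 36032855 (GRCm38, GENCODE vM21). Their median was -0.73 relative to the median gene, all 8 lay below it and 2 were at least 2-fold below. The other 70 named genes of that stretch that passed the filter had a median of -0.14, with 41 below the median gene, 15 at least 2-fold below it and 5 at least 2-fold above. Over all named genes past the filter, 12.2% were at least 2-fold below and 12.6% at least 2-fold above. Neighbours of the members along the chromosome were thus on both sides of the median gene. The divergent pair Psmb9 and Tap1, whose RefSeq starts flank the printed stretch, had relative differences of -1.09 and -0.66. In GENCODE vM21 Psmb9 starts at 34187764, beyond that stretch, and there its exons overlap those of Tap1 by 212 bases.

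**Figure D4:**
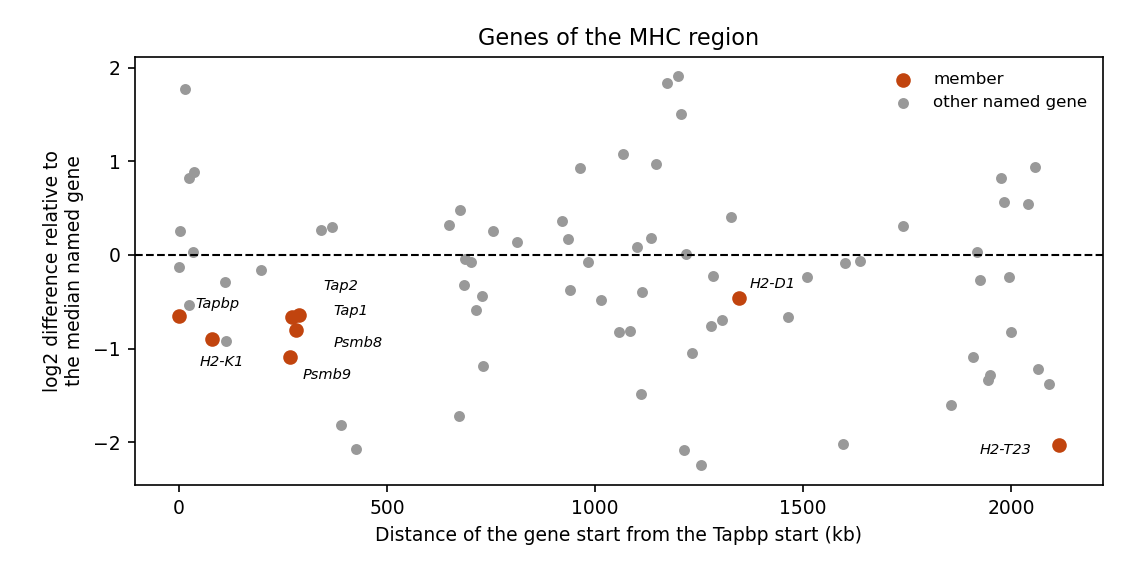
Log2 difference relative to the median named gene (dashed line) for named genes of the MHC region past the filter, by the distance in kb of the gene start from the Tapbp start. The 8 members (large points) lie below the line, from -0.46 for H2-D1 to -2.04 for H2-T23, and the other 70 genes lie on both sides of it.

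Bulk tumour RNA mixes cancer cells with leukocytes, stroma and muscle, so fewer cells of a type and less RNA per cell cannot be told apart. The labelled cell type could not be checked by epithelial markers: of 10 colon or keratin markers 1 was above 0 in FuOXP NP (Krt20) and 2 in Empty NP (Krt18 and Vil1), and Krt8, Krt19, Epcam, Cdh1, Cdx1, Cdx2 and Cldn4 were listed at 0 in both. The summed TPM of 9 leukocyte markers was 18.2 in FuOXP NP, with 7 above 0, and 74.3 in Empty NP, with 9 above 0. Cd52 and Vav1 were listed at 0 in FuOXP NP. Pooled leukocyte marker reads were 4.09-fold lower (2.93 to 5.77), and the typical gene, at 3.20-fold, falls between these limits. Of the 9 markers, 8 passed the filter, 4 above and 4 below the median gene, with a median of -0.15. Leukocyte markers as a list were thus not set apart from the typical gene. Itgb2, an integrin chain of leukocytes, was at 3.13 TPM in FuOXP NP and at 12.8 TPM in Empty NP, Cd53 was at 4.38 TPM in FuOXP NP and at 8.18 TPM in Empty NP, and Cd52 was at 15.002 TPM in Empty NP. The 15 T cell and natural killer cell markers with a row summed to 14.3 TPM in FuOXP NP and 59.4 TPM in Empty NP. Above 0 were 7 of them in FuOXP NP and 8 in Empty NP. Their pooled reads were 3.29-fold lower (1.76 to 6.37), limits that also lie on either side of the typical gene. The filter was passed by 7, with 3 above and 4 below the median gene and a median of -0.67. Cd3d and Cd3e, which define T cells, were listed at 0 in both libraries. Other T cell markers had a few reads. Cd3g and Cd2 were listed at 0 in FuOXP NP and had 3 and 2 reads in Empty NP. Cd8a, Cd4 and Lck had 2, 2 and 1 reads in FuOXP NP and 3, 1 and 2 reads in Empty NP. Gzma and Gzmb, granule proteases of killer cells, were at 2.17 and 2.69 TPM in FuOXP NP and at 20.3 and 15.1 TPM in Empty NP, and Prf1, perforin, at 5.57 TPM in FuOXP NP and 10.4 TPM in Empty NP. The 15 macrophage and dendritic cell markers summed to 284 TPM in FuOXP NP and 537 TPM in Empty NP, with 13 and 14 above 0, and were 2.42-fold lower by pooled reads (2.08 to 2.82). Past the filter were 14 of them, 8 above and 6 below the median gene, with a median of 0.15. Cd68 was listed at 0 in FuOXP NP and Flt3 in both. Csf1r and Lyz2, the macrophage markers with the most reads, were at 46.9 and 162.7 TPM in FuOXP NP and at 114.5 and 194.1 TPM in Empty NP, both above the median gene. The 3 farthest below it, the dendritic cell markers Xcr1, Clec9a and Zbtb46, were at 1.29, 1.74 and 0.448 TPM in FuOXP NP and at 22.4, 24.9 and 12.6 TPM in Empty NP. The 10 fibroblast and vessel markers, all above 0 in both libraries, summed to 64.9 TPM in FuOXP NP and 130.8 TPM in Empty NP. By pooled reads they were 2.25-fold lower (1.89 to 2.67), less than the 3.20-fold of the typical gene. Past the filter were 9, 5 above and 4 below the median gene, with a median of 0.55. At least 2-fold above were 3 (12.6% of the named genes were), and 1 was at least 2-fold below (12.2% were). Among them the matrix genes Col1a1, Col1a2 and Dcn were at 0.872, 5.99 and 42.1 TPM in FuOXP NP and at 10.9, 21.5 and 54.7 TPM in Empty NP. The 14 skeletal muscle markers summed to 0.889 TPM in FuOXP NP, with 2 above 0, and 130.5 TPM in Empty NP, with 12 above 0. By pooled reads they were 17.4-fold lower (12.3 to 25.3), beyond the typical gene, and all 12 past the filter lay below the median gene. Myh4, a fast myosin, was at 0.317 TPM in FuOXP NP and at 27.2 TPM in Empty NP, and Tnnt3 and Acta1 were listed at 0 in FuOXP NP and at 22.5 and 16.2 TPM in Empty NP. The 7 red cell markers summed to 75.0 TPM in FuOXP NP, with 4 above 0, and 38.5 TPM in Empty NP, with 1 above 0. By pooled reads they were 1.31-fold lower, with an interval (0.763 to 2.23) that holds equal levels and ends short of the 3.20-fold of the typical gene. Past the filter were 4, 3 above and 1 below the median gene. The pool mixes unlike genes, as all 26 of its reads in Empty NP were those of Alas2. Hbb-bs, a beta globin with near-identical copies, was at 57.1 TPM in FuOXP NP and listed at 0 in Empty NP, while Alas2, an enzyme of heme synthesis, was at 7.94 TPM in FuOXP NP and at 38.5 TPM in Empty NP. The part of these cell types in the class I values was not tested.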

How the data were processed

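The authors deposited a table of TPM with a column for each group. STAR 2.6.1a, Cufflinks 2.2.1, Cuffdiff and the build GRCm38 are named in the submitters' processing notes with no role. The labels give 75-base paired-end reads. Strandedness, annotation and depletion of ribosomal RNA: not given in the sources used here.

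Of 53927 rows, 22240 had no symbol and 26 a symbol turned into a date, and these were left out. Adjacent rows with equal values (54) were counted once, and of repeated symbols the highest row was kept. The log2 difference was log2((FuOXP NP + 1)/(Empty NP + 1)), a scale that makes changes of low genes look small. Differences were centred on the median of named genes whose mean reached 1 TPM, and called at 2-fold.

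Reads were recovered from TPM, the exon length in GENCODE vM21 and the ratio of the TPM values, which must be a ratio of whole numbers. For 10 of 10 members, and for 99.98% of the 8777 genes tested, it was within a relative 1e-08. Whether these units are single reads or pairs was not tested. No source used here says why they are far fewer than the labels' read number. PCR copies are not told apart.

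The members, lists and tests were chosen with earlier results of these data known, and the promoter motifs after the sequences were seen. Named from each list were up to 3 genes farthest from the median gene at a mean of 5 TPM or more, and genes fixed by name, of which 1 is not reported here. Genes named for being listed at 0, H2-T9, Csf1r, Lyz2, Cd3g, Cd2, Cd8a, Cd4, Lck, Krt18, Vil1 and Krt20 were chosen after their values were seen. So were Ptprc, Lcp1, H2-Aa, H2-Ab1 and Ciita. The steps were tested on simulated data. Alternatives were other pseudocounts, filters, centres, overlap-free members and recovered reads. Tools were scipy 1.17.1, numpy 2.4.6, pandas 2.3.3 and matplotlib 3.10.9 in Python 3.11.15.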

Additional observations from a re-analysis of the deposited data

Results flagged for a closer look

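Rows with no gene symbol, which no comparison uses, took 71.3% of all TPM in FuOXP NP and 62.9% in Empty NP, so more of the FuOXP NP library lay outside the genes described.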

How the results depend on the processing

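The number of members at least 2-fold below the centre was 2. It was 1 with a pseudocount of 0.1 TPM, with a mean of 5 TPM or more, among members whose exons overlap no other gene and among members with whole reads by exon length, the last chosen after seeing the data. It was 6 with a pseudocount of 5 TPM, 4 with no filter and 9 when centred on the constitutive proteasome subunits. In 2 alternatives nothing was centred, and the count is against equal levels. It was 4 there without the 20 most abundant rows, with the rest rescaled, and 10 as deposited. The median of the members was -1.02 with a pseudocount of 5 TPM, -1.35 relative to the constitutive subunits and -2.10 as deposited, and lay below 0 under every alternative run. Below the centre were 9 of 10 members with a pseudocount of 0.1 TPM and 8 of 9 with a mean of 5 TPM or more, where Tap2 was filtered out. Otherwise all 10 lay below the centre, or below equal levels where nothing was centred. No single member called at 2-fold turned its direction. The number of named genes 2-fold below the centre was 2285 with a pseudocount of 0.1 TPM, 1763 with no filter, 578 with a mean of 5 TPM or more and 3395 relative to the constitutive subunits. Against equal levels, with nothing centred, it was 6618 as deposited and 2811 without the abundant rows. The number 2-fold above was 309 with a pseudocount of 5 TPM, 1906 with no filter, 469 with a mean of 5 TPM or more, 222 as deposited and 439 relative to the constitutive subunits. Without H2-D1, the heavy chain with the most reads, the pooled heavy chain log2 ratio relative to the median gene was -1.78. Without Psmb9 and Psmb6 the inducible share was 54.4% in FuOXP NP and 61.6% in Empty NP. The cause of these moves was not tested. No paired analysis was possible because each group has 1 library, and for the same reason no replicate was left out. Depth limits what can be set apart from the typical gene, with 2 to 13 reads in FuOXP NP for 7 of the 10 members.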

Other observations

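Among the other genes of the MHC region, chosen after their values were seen, those with at least 20 reads and 2-fold below the median gene besides H2-T24 were Nrm, Ppp1r18 and Prrc2a. Nrm, which encodes the nuclear envelope protein nurim, was at 13.01 TPM on 10 reads in FuOXP NP and at 94.7 TPM on 39 reads in Empty NP. Ppp1r18 was at 2.65 TPM on 6 reads in FuOXP NP and at 23.1 TPM on 28 reads in Empty NP, and exons of both genes overlap the antisense gene Ppp1r18os. Prrc2a had 6 reads in FuOXP NP and 28 reads in Empty NP.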
